A study of Mus musculus with 10 samples.

Results

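The nuclear receptor superfamily is the set of transcription factors that includes the receptors for steroid and thyroid hormones, retinoids, vitamin D and fatty lipids, with a group of orphan receptors that have no settled ligand. A list of 45 mouse genes of the superfamily was looked up by gene symbol in the deposited count table, and 37 of its 25178 genes matched. The other 8 genes (Nr1i2, Nr1i3, Hnf4g, Rorb, Nr2e1, Nr2e3, Esrrb and Esrrg) were not analysed here. The libraries come from 5 male and 5 female C57/BL6 mice at steady state, with 1 library per mouse. Marrow was flushed from 1 hindlimb and mature blood cells were removed with magnetic beads, so both groups are lineage-depleted marrow, labelled as hematopoietic stem and progenitor cells. The genotype field of the labels holds only the sex, and neither a treatment nor an age is given in the sources used here. The question was which receptors are expressed in this marrow, how they vary over the 10 libraries and whether they differ between the sexes.

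A nuclear receptor binds DNA through a pair of zinc fingers and binds its ligand through a separate domain at the other end of the protein. Without ligand, many members recruit corepressors, and ligand binding exchanges these for coactivators, while steroid receptors wait in complexes with heat shock chaperones. Many members bind DNA only as a pair with a retinoid X receptor (RXR). In blood formation, retinoic acid receptors are known for granulocyte differentiation, the glucocorticoid receptor for stress erythropoiesis, and PPARγ and the liver X receptors for the lipid handling of macrophages.

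Total counts per library ran from 20754101 to 24759687. The 14 stem and progenitor markers fixed for the label check were all detected in every library, with a summed level of 1182 to 1381 CPM (counts scaled to a common library total, with TMM factors) in females and 897 to 1306 CPM in males. Kit, the stem cell factor receptor, averaged 264 CPM and Cd34 107 CPM. Markers of other cells were also present: the summed level of 11 mature neutrophil markers was 282 to 1050 CPM in females and 227 to 9352 CPM in males, the top value being that of male replicate 1. On the first principal component male replicates 1 and 2 separated from the other 8 mice. In male replicate 2 longer genes had the lower deviations from the rest (Spearman's rho -0.51 across 14663 genes). In the other libraries this rho ran from -0.30 in male replicate 3 to 0.37 in male replicate 4. Many sex differences are also given without male replicate 1, male replicate 2 or both. Mean TPM over the 10 libraries and the CVs of single receptors include both throughout. In bulk RNA, fewer cells of a type and less RNA per cell cannot be told apart.

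Of the 37 receptors, 25 had counts high enough to be tested and 18 averaged at least 1 TPM (a scale that divides counts by exon length and by the library's total, so that genes can be compared). All 25 tested receptors except Pgr had a count in all 10 libraries. The median level of the 25 was 3.36 TPM, against 11.5 TPM for all 14674 genes tested. Only 5 receptors averaged 10 TPM or more, and the first 4, Rxrb, Nr1h2, Thra and Nr3c1, made up 71.5% of the summed receptor TPM. The 12 receptors that were not tested had between 2 and 81 counts over the 10 libraries together and averaged at most 0.132 TPM.

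**Figure D1:**
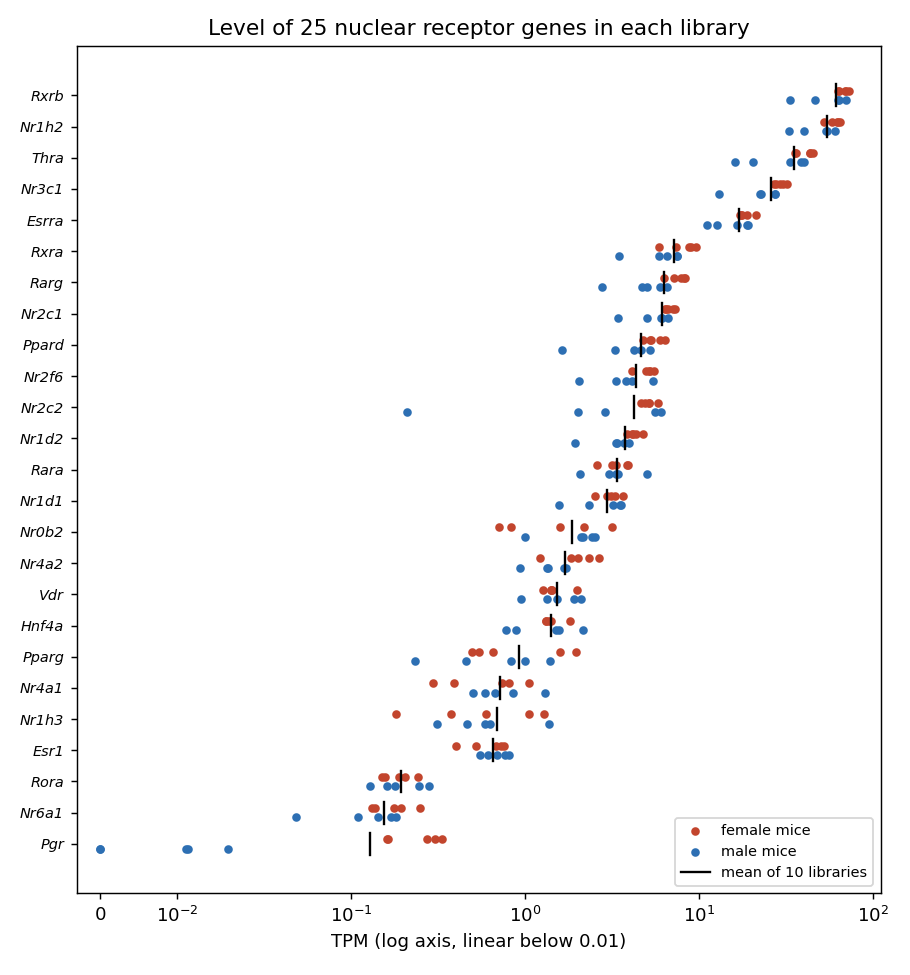
Level of the 25 tested receptor genes in TPM (log axis that is linear below 0.01), with 1 point per library, females in red and males in blue, and a black bar at the mean of 10 libraries. Rxrb and Nr1h2 lead at 61.3 and 53.9 TPM, and Pgr, at the bottom, is the receptor whose female and male points do not overlap.

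Among the retinoid receptors, the RXR gene Rxrb (chromosome 17: 34031812 to 34038399) had the highest level of the family, 61.3 ± 12.3 TPM (SD, n = 10). In CPM it was at 91.2, 78.6, 110.3, 103 and 114 in male replicates 1 to 5 and at 117, 101, 110.2, 100.2 and 110.4 in female replicates 1 to 5. Male replicates 1 and 2 were the lowest, and the sexes overlapped. Rxra, the RXR gene known for its role in the myeloid lineage, was at 7.11 ± 1.80 TPM (SD, n = 10). Its CPM was 17.7, 11.2, 14.04, 16.8 and 16.6 in males and 13.6, 15.9, 19.6, 19.1 and 20.1 in females. Rxrg, the third RXR gene, had 29 counts over all libraries and was not tested. The retinoic acid receptor genes Rarg and Rara were at 6.26 ± 1.76 and 3.36 ± 0.798 TPM (SD, n = 10), while Rarb had 26 counts. Of the exon length of Rarb 34.1% is shared with Top2b on the opposite strand, so its count is uncertain. Rxra and Rarg did not separate: Rxra was the higher by TPM in 7 of 10 libraries.

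Thra, which encodes the thyroid hormone receptor α, was the third most abundant member at 35.1 ± 9.72 TPM (SD, n = 10). Its CPM was 47.0, 43.9, 66.7, 76.5 and 72.9 in males and 69.5, 79.2, 82.5, 66.6 and 76.8 in females, so that male replicates 1 and 2 lay below the other 8 libraries. Thrb, the β gene, had 81 counts over all libraries. The vitamin D receptor gene Vdr was at 1.53 ± 0.357 TPM. Thra and the clock receptor gene Nr1d1 lie on opposite strands of chromosome 11 and their exons share 263 bases, 5.70% of the exon length of Thra and 8.55% of that of Nr1d1. No source used here gives a strand setting, so reads from this overlap cannot be assigned.

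Among the lipid and xenobiotic sensors, Nr1h2, which encodes the liver X receptor β, stood at 53.9 ± 10.2 TPM (SD, n = 10), second in the family and above Thra in all 10 libraries. Its CPM was 67.2, 65.6, 79.6, 74.8 and 83.2 in males and 89.0, 85.5, 82.7, 69.6 and 74.4 in females. The paralog Nr1h3, liver X receptor α, was at 0.684 ± 0.411 TPM. Ppard, the most widely expressed PPAR gene, was at 4.64 ± 1.36 TPM, Pparg at 0.915 ± 0.562 TPM and Hnf4a, best known from liver, at 1.41 ± 0.399 TPM (SD, n = 10 each). Ppara had 2 counts over all libraries and the bile acid receptor gene Nr1h4 had 6.

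The promoter of Nr1h2 is shown because it is the abundant member with a sequence feature that few other genes share. The window runs from 250 bases before to 50 after the RefSeq start (chr7:44553916-44554215, minus strand, GRCm38.p6), written 5′ to 3′. Capitals mark CCGGAAGT on either strand, the core of the site that ETS factors are known to bind, a match being no evidence of binding.
Nr1h2: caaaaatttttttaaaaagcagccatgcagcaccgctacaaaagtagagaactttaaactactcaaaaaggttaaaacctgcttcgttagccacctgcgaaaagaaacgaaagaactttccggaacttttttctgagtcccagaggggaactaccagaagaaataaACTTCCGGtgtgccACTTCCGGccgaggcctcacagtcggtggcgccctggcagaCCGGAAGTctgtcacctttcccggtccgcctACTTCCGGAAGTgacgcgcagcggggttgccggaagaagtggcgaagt
It holds 5 matches, of which the last 2 overlap in 1 palindromic run. Of 32851 promoter windows of this length in the RefSeq table, 3.89% hold a match, and Nr1h2 was the only window with 4 or more. None of the other 61 windows of the superfamily holds one. The motifs were chosen with the sequences in view.

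Of the steroid receptors, the glucocorticoid receptor gene Nr3c1 was the most abundant at 25.8 ± 5.37 TPM (SD, n = 10). It was at 85.7, 59.9, 76.2, 87.4 and 86.2 CPM in males and at 89.8, 88.6, 97.4, 82.6 and 89.4 CPM in females, with male replicate 2 the lowest library. The mineralocorticoid receptor gene Nr3c2 had 55 counts in all. The estrogen receptor gene Esr1 was at 0.649 ± 0.128 TPM, and Esr2 had 2 counts in all. Esr1 was at 4.70, 4.47, 3.63, 4.33 and 4.50 CPM in males and at 3.93, 2.81, 2.18, 3.97 and 3.99 CPM in females. Female replicates 2 and 3 were the lowest, and male replicate 3 lay among the females.

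The estrogen-related receptor gene Esrra, a regulator of mitochondrial genes, was the fifth by level at 16.9 ± 3.03 TPM and below Nr3c1 in all 10 libraries. It was at 27.6, 28.8, 36.2, 29.8 and 33.7 CPM in males and at 31.8, 30.3, 32.6, 30.7 and 35.7 CPM in females, which overlapped. The clock repressor genes Nr1d2 and Nr1d1 (REV-ERBβ and REV-ERBα) were at 3.74 ± 0.763 and 2.96 ± 0.655 TPM, and Rora, which acts on the same DNA elements as an activator, at 0.193 ± 0.0486 TPM (SD, n = 10 each).

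Among the orphan receptors, the testicular receptor genes Nr2c1 and Nr2c2, whose products are known to bind globin gene regulatory elements in erythroid cells, were at 6.09 ± 1.13 and 4.22 ± 1.91 TPM. Nr2c1 was at 11.5, 9.35, 12.3, 11.5 and 12.4 CPM in males and at 13.9, 11.7, 13.2, 11.9 and 11.8 CPM in females. Nr2f6 was at 4.35 ± 1.10 TPM, and its relatives Nr2f1 and Nr2f2, which are typical of mesenchymal and vascular tissue, had 14 and 54 counts in all. Of the exon length of Nr2f6 54.4% is shared with Ocel1 on the opposite strand, so its level is uncertain. Nr0b2, which encodes a corepressor-like receptor without a DNA-binding domain, was at 1.86 ± 0.805 TPM, and Nr6a1 at 0.153 ± 0.0537 TPM (SD, n = 10 each). Nr5a1 and Nr5a2, known from steroid-producing tissue and liver, had 3 and 13 counts.

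The NR4A genes are induced within minutes by many stimuli and act without a ligand. Nr4a2 was at 1.70 ± 0.530 TPM, Nr4a1 at 0.718 ± 0.301 TPM (SD, n = 10 each), and Nr4a3 had 25 counts in all. Nr4a1 was at 2.27, 1.40, 0.768, 1.24 and 0.845 CPM in males and at 0.582, 0.413, 1.03, 1.47 and 1.10 CPM in females. Nr4a2 was at 1.89, 3.27, 2.35, 2.81 and 2.86 CPM in males and at 3.15, 4.29, 3.25, 1.96 and 3.64 CPM in females. The library with the most Nr4a1, male replicate 1, had the least Nr4a2, and the library with the most Nr4a2, female replicate 2, had the least Nr4a1. Their promoter windows are set side by side because both are known targets of the cAMP-responsive factor CREB and carry the same half-site in several copies. Capitals mark TGACG on either strand in the 300-base windows chr15:101266596-101266895 (plus strand, Nr4a1) and chr2:57123954-57124253 (minus strand, Nr4a2) of GRCm38.p6.
Nr4a1: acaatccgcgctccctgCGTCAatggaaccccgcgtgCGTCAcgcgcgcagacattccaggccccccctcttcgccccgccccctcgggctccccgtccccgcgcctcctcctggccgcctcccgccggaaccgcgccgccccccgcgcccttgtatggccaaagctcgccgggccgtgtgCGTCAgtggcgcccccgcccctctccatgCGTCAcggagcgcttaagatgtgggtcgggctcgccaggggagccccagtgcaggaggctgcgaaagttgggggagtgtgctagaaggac
Nr4a2: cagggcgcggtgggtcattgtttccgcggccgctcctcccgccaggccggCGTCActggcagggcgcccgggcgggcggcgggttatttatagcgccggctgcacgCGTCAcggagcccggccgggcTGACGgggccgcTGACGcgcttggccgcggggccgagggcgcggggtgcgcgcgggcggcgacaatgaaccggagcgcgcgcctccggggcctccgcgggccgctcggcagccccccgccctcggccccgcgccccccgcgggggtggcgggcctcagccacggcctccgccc
Each holds 4 matches. Of all 32851 windows, 20.8% hold at least 1 match and 0.231% hold 4 or more, while 17 of the 62 windows of the superfamily (27.4%) hold at least 1.

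The sex comparison called 1 of the 25 tested receptors, the progesterone receptor gene Pgr, at an edgeR adjusted p under 0.05. Over all genes tested 0.0545% were called, 0.0204% as higher and 0.0341% as lower in females. Pgr passed the filter on low counts through the females alone, so its difference is given as its own result and the count of called receptors as a description. The males had 2, 0, 1, 1 and 0 counts of Pgr and the females 12, 25, 13, 21 and 28, or 0.0839, 0, 0.0427, 0.0401 and 0 CPM against 0.582, 1.03, 0.555, 0.938 and 1.10 CPM. Each female lay above each male, and male replicates 2 and 5 were at 0. The log2 fold change, female over male, was 4.38 (SE 0.52, edgeR adjusted p = 0.00559). Even in females Pgr stood at 0.247 TPM, less than Esr1 at 0.616 TPM.

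The call of Pgr held in each of the 10 fits that left out 1 library (edgeR adjusted p 0.00749 to 0.0394) and without male replicates 1 and 2 (log2 fold change 4.64, edgeR adjusted p = 0.00955). These fits reuse the same mice. With the replicate number as a block Pgr was not called (log2 fold change 4.34, edgeR adjusted p = 0.310). A filter that asks for 1 CPM in 5 libraries removed the gene. Of the cell type markers beside which this difference stands, 0 were called by edgeR in any of 13 lists. Over all genes, DESeq2 called 0.361% of those it tested. In the edgeR fit 48.0% of all genes tested had a positive fold change, and 49.6% without male replicates 1 and 2. The summed level of 10 megakaryocyte markers was 1772 to 2345 CPM in females and 1338 to 1608 CPM in males, with 10 of 10 at a positive fold change and 3 called by DESeq2. That of 10 erythroid markers was 4691 to 9065 CPM in females and 11059 to 47711 CPM in males, with 7 of 10 at a negative one and 5 called by DESeq2. A negative fold change was also found for 11 of 11 mature neutrophil markers, 8 of 8 tested B lineage markers (2 called by DESeq2) and 8 of 9 mast cell, basophil and eosinophil markers, with sums that overlapped. Without male replicates 1 and 2 the negative values were 11 of 11, 6 of 8 and 5 of 9 for these 3 lists and 8 of 10 for the erythroid markers, and 10 of 10 megakaryocyte markers were positive. The 10 endothelial markers overlapped (132 to 157 against 126 to 161 CPM), as did the 10 stromal and adipocyte markers (347 to 2526 against 402 to 2811 CPM). All markers of these 7 lists were detected in every library. Their part in the difference of Pgr was not tested.

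Pgr (chromosome 9: 8899833 to 8968611) is known as a target of the estrogen receptor in the reproductive tract. Its promoter window (chr9:8899583-8899882, plus strand, GRCm38.p6) is shown as that of the 1 receptor called, with capitals at CCAAT and GGGCGG on either strand, common promoter elements.
Pgr: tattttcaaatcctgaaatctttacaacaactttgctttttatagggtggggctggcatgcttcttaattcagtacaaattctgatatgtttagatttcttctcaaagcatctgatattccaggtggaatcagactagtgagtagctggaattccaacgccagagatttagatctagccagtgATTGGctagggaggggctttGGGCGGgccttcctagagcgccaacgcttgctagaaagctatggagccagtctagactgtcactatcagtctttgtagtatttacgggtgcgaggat
It holds 1 match of each, as 37.4% and 35.7% of all windows hold at least 1. The receptor half-site AGGTCA, which 16.3% of all windows and 11 of the 62 windows of the superfamily hold, has no match in these letters. The estrogen response palindrome and the steroid response palindrome, each with a spacer of any 3 bases, were found in 0 of the 62 windows, against 0.0700% and 0.0487% of all windows.

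**Figure D2:**
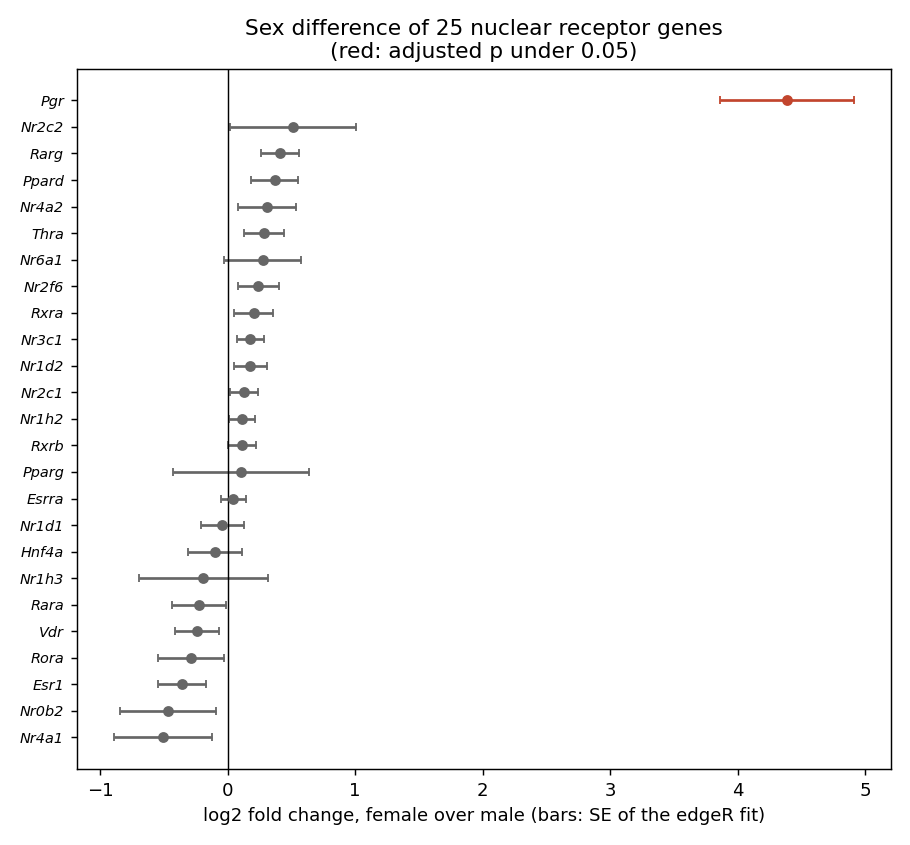
Log2 fold change, female over male, of the 25 tested receptor genes with the SE of the edgeR fit as bars. Pgr, in red, lies at 4.38, and the other 24 lie between -0.51 and 0.51, uncalled.

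The other 24 receptors were not called, with log2 fold changes between -0.51 and 0.51 and edgeR adjusted p of 0.506 or more. The groups did not overlap for 1 of the 25, Pgr, where 1.93% of all genes tested had groups that did not overlap, 1.06% with the females higher. At an unadjusted p under 0.05 there were 2, Pgr and Rarg, where 9.17% of all genes tested passed. Of the 25, 16 had a positive and 9 a negative value, with a median of 0.11, against a median of -0.01 over all genes tested, of which 48.0% were positive. The median of the 25 without male replicates 1 and 2 was 0.03, with 15 positive and 10 negative.

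Rarg, the retinoic acid receptor γ gene known for its role in stem cell maintenance, had the smallest p after Pgr. It was at 10.6, 7.01, 11.01, 8.26 and 11.4 CPM in males and at 11.4, 13.3, 13.97, 14.02 and 11.7 CPM in females. The sexes overlapped where female replicate 1 lay below male replicate 5. The log2 fold change was 0.41 (SE 0.15, edgeR adjusted p = 0.506), and 0.33 without male replicates 1 and 2. Ppard was next, at 12.3, 7.32, 13.8, 14.5 and 16.0 CPM in males and at 16.6, 19.0, 17.6, 14.2 and 15.2 CPM in females. Its log2 fold change of 0.37 (SE 0.18, edgeR adjusted p = 0.506) was 0.16 without male replicates 1 and 2 and 0.22 without male replicate 2 alone.

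Esr1 had a negative value, -0.36 (SE 0.19, edgeR adjusted p = 0.506), the opposite sign to Pgr, and was at -0.23 without female replicate 3. Thra was at 0.29 (SE 0.16) and at 0.05 without male replicates 1 and 2, the libraries in which it was lowest, and at 0.19 without male replicate 2. For Nr3c1 the value was 0.18 (SE 0.11), and 0.10 without male replicate 2 or without both. The next 2 by p were Nr2f6, at 4.95, 3.64, 4.91, 5.05 and 6.62 CPM in males and 5.24, 6.11, 6.15, 6.52 and 5.71 CPM in females, and Vdr, at 3.78, 3.17, 3.76, 4.49 and 4.83 against 3.44, 2.85, 3.16, 3.17 and 4.30 CPM. Both overlapped between the sexes, with log2 fold changes of 0.24 (SE 0.16) and -0.24 (SE 0.17). These were 0.11 and -0.36 without male replicates 1 and 2. For Nr2f6, leaving out male replicate 2 alone gave 0.15, and leaving out male replicate 5 gave 0.36.

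**Figure D3:**
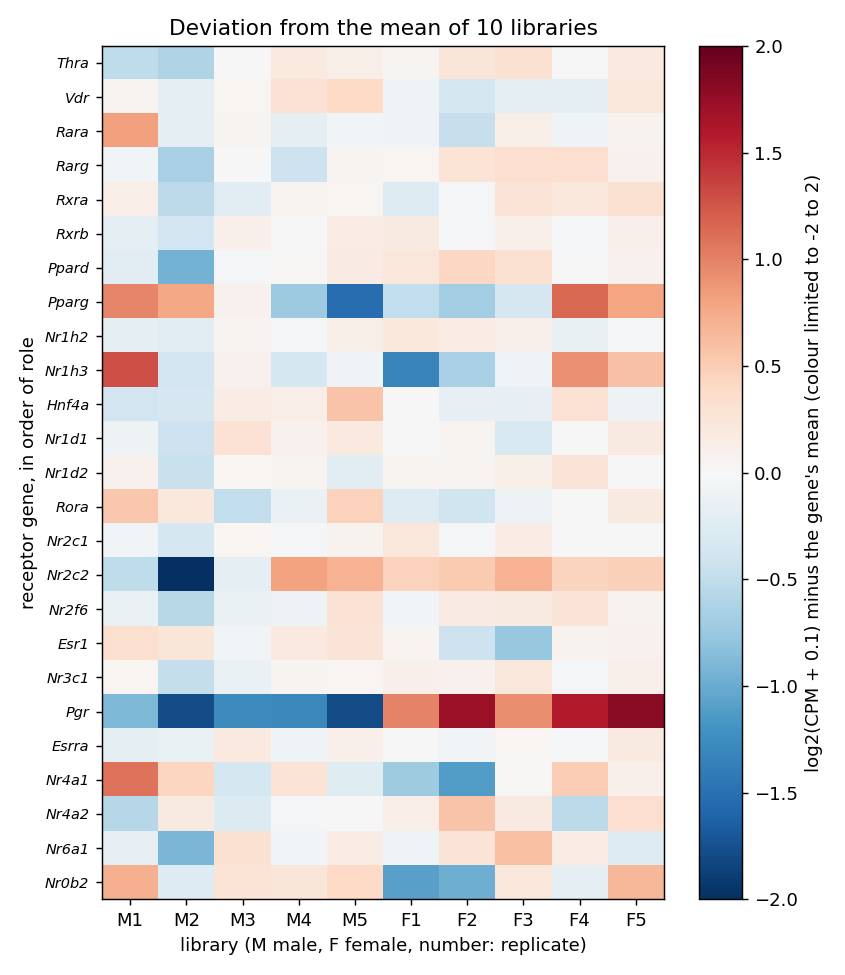
Deviation of log2(CPM + 0.1) from each gene's mean over 10 libraries for the 25 tested receptors, in order of role, with males (M) and females (F) by replicate and the colour limited to -2 to 2. Pgr separates the sexes, and male replicate 2 (M2) is the lowest library for 14 of the 25 receptors, for Pgr in a tie with M5.

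Over the 10 libraries the coefficient of variation (CV) of the 25 tested receptors had a median of 20.7%, against 19.3% for all genes tested. The edgeR biological CV had medians of 0.207 and 0.189. It sets counting error aside and, being estimated with sex in the model, also the difference between the sexes. The lowest CVs were 8.95% for Esrra, 10.1% for Nr2c1, 10.5% for Nr1h2, 11.2% for Rxrb and 12.0% for Nr3c1. At the other end stood Pgr (105%), Nr1h3 (62.8%), Pparg (61.4%), Nr4a1 (47.7%) and Nr2c2 (42.1%). A CV of 25% or more was found for 10 of the 25 receptors and for 34.9% of all genes tested. The median CV without male replicates 1 and 2 was 16.0%, against 11.5% for all genes tested. The CV of CPM includes counting error, and the receptors had the lower median level (3.36 against 11.5 TPM over the 10 libraries). The genes were not matched for level.

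**Figure D4:**
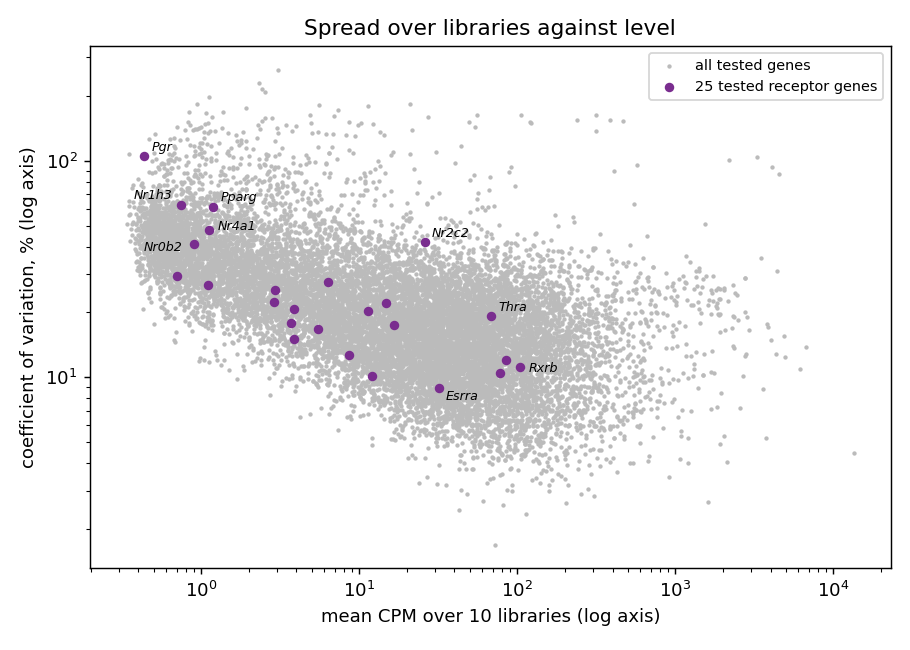
Coefficient of variation of CPM over the 10 libraries in percent against mean CPM, both on log axes, for all tested genes (grey) and the 25 tested receptors (purple). Nr2c2, at a mean of 26.0 CPM, has a CV of 42.1%, while the other receptors above 40% average at most 1.19 CPM.

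Male replicate 2 was the lowest library for 14 of the 25 receptors (56%). Of all genes tested, 33.3% had their lowest value in it. Ties went to the first library in order, and Pgr is among the 14 although male replicate 5 was also at 0. Male replicate 2 was the highest library for 0 of the 25, where 29.8% of all genes had their highest value in it. Nr2c2 (chromosome 6: 92091390 to 92174294) was the most extreme. It had 36 counts in male replicate 2 and between 356 and 929 in the other 9 libraries, or 14.9, 1.87, 18.7, 37.2 and 34.3 CPM in males and 29.3, 30.6, 34.5, 29.1 and 29.6 CPM in females. The 5 females were close together, and the males ran from far below to just above them. On the log2(CPM + 0.1) scale the deviation of male replicate 2 from the other mice was -3.82, and 15 of all 14674 genes tested lay at or below that value. Its log2 fold change of 0.51 (SE 0.49, edgeR adjusted p = 0.608) was 0.22 when male replicate 2 was left out and 0.02 when male replicates 1 and 2 were. It was 0.81 when male replicate 4 was left out and 0.74 when male replicate 5 was.

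Nr2c2 has the longest exon model of the tested receptors, 14935 bases, of which 30.7% is shared with Mrps25 on the opposite strand. Mrps25, a mitochondrial ribosomal protein gene, was at 65.8 CPM in male replicate 2 and at 37.4 to 47.0 CPM in the other libraries. Across the 25 receptors the deviation in male replicate 2 against exon length had a Spearman's rho of -0.32, across genes that are not independent. The next lowest receptors in male replicate 2 were Pgr (8546 bases) at -1.98, Ppard (7514 bases) at -1.06 and Nr6a1 (10824 bases) at -1.01. Esr1 (13661 bases) was at 0.27 and Rora (13071 bases) at 0.23. Pgr was at 0 CPM in male replicate 2, as in male replicate 5. Its deviation was taken from a mean that included the females, each of which lay above each male. The part of exon length and of the overlap in the value of Nr2c2 was not tested.

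The 3 highest libraries of Pparg and Nr1h3 were also those of most macrophage and monocyte markers and of some stromal and adipocyte markers. Pparg was at 2.06, 1.77, 1.07, 0.561 and 0.282 CPM in males and at 0.679, 0.578, 0.769, 2.32 and 1.80 CPM in females. Nr1h3 was at 1.72, 0.467, 0.683, 0.481 and 0.610 CPM in males and at 0.194, 0.372, 0.598, 1.29 and 1.02 CPM in females. For both, the 3 highest libraries were male replicate 1 and female replicates 4 and 5, a trio picked after these values were seen, which 2.73% of all genes tested share. For Pparg, male replicate 2 followed at 1.77 CPM, close to female replicate 5 at 1.80 CPM. The spread of both genes lay within each sex, and the log2 fold changes were 0.11 (SE 0.53) for Pparg and -0.19 (SE 0.51) for Nr1h3. Without male replicates 1 and 2 they were 0.93 and 0.24, still uncalled. Without male replicate 1 alone they were 0.43 and 0.31, and without female replicate 4 alone they were -0.25 and -0.52.

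The summed level of the 11 macrophage markers was 131, 42.5, 44.9, 42.2 and 26.0 CPM in males and 34.7, 34.1, 45.4, 79.6 and 73.3 CPM in females. Of these 11 markers 4 had a positive and 7 a negative fold change, and 11 and 0 when male replicates 1 and 2 were left out. The same trio led for 8 of these 11 markers, among them Vcam1 (36.3, 20.98 and 14.4 CPM in the trio and at most 9.96 CPM elsewhere) and Spic, a factor of iron-recycling macrophages (1.97, 1.25 and 1.10 CPM, at most 0.896 CPM elsewhere). Adgre1, Cd163 and C1qb, the rest of the macrophage list, had other libraries among their highest. The trio also led for 5 of 6 monocyte markers and 3 of 10 stromal and adipocyte markers. Of the latter, 2 were the leptin receptor gene Lepr (4.49, 7.501 and 3.36 CPM in male replicate 1 and female replicates 4 and 5) and Adipoq (4.41, 8.57 and 3.83 CPM). All 11 macrophage markers were detected in every library, and the part of these cells in the values of Pparg and Nr1h3 was not tested. The fatty acid-binding protein gene Fabp4, a known PPARγ target, was highest in female replicate 4 (7.46 CPM) and male replicate 2 (6.34 CPM). Abca1, a known liver X receptor target, had its highest value of 7.41 CPM in male replicate 5. Abcg1, another known target, was highest in male replicate 1 (19.6 CPM) and female replicate 5 (18.5 CPM). Male replicate 5 (16.9 CPM) and female replicate 4 (16.0 CPM) followed.

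**Figure D5:**
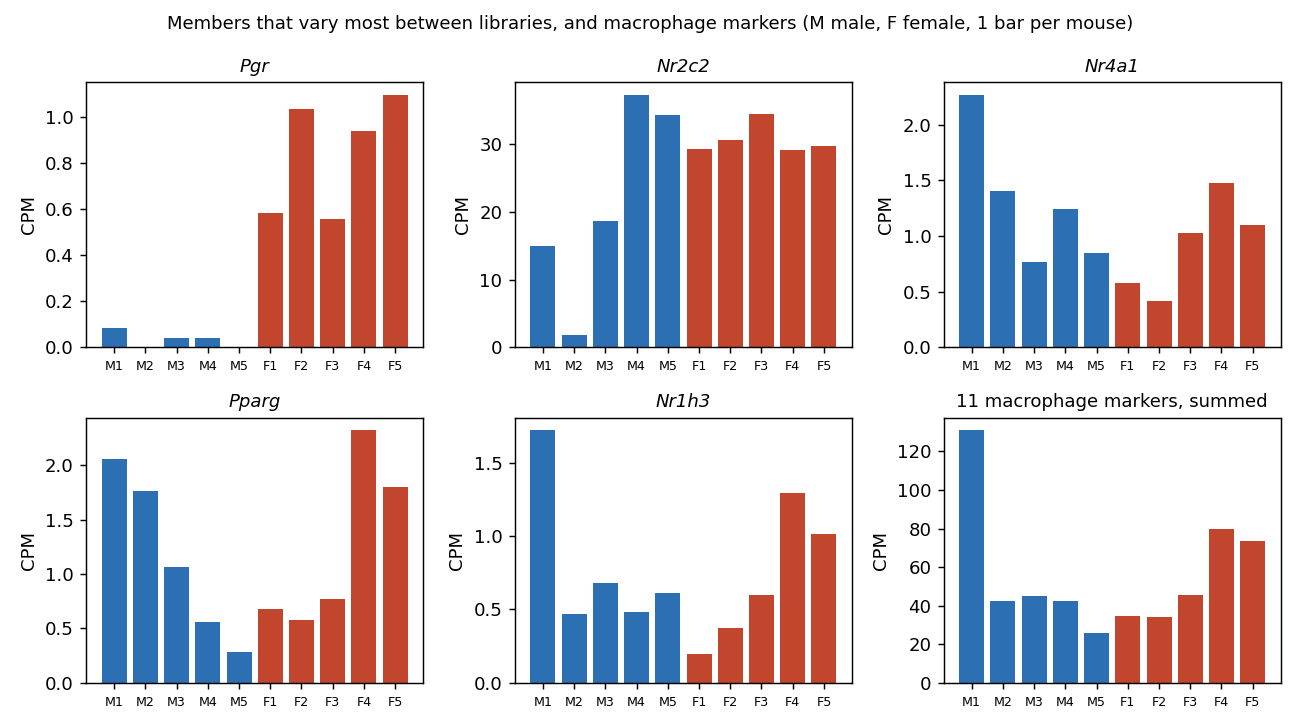
CPM in each of the 10 libraries (1 bar per mouse, males M in blue, females F in red) for the 5 receptors with the largest CV and for the sum of 11 macrophage markers. Pparg, Nr1h3 and the macrophage sum have their 3 highest bars in M1, F4 and F5, and Nr2c2 is at 1.87 CPM in M2.

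Of the genes that work with the receptors, 0 were called in the edgeR fit in any of 11 lists fixed for coregulators, chaperones, ligand supply and targets. Among 16 tested coactivators 13 had a positive and 3 a negative fold change, with a median of 0.22, and without male replicates 1 and 2 these were 10 and 6, with a median of 0.02. The lead was Pprc1, a relative of PGC-1, at 135 ± 7.92 CPM (SD, n = 5) in females against 101 ± 28.0 CPM (SD, n = 5) in males, and Ncoa1 was at 19.7 ± 1.85 against 16.2 ± 2.93 CPM. Of 12 corepressors 9 were positive and 3 negative (median 0.18), a split that turned to 3 and 9 (median -0.03) without these mice, with Tbl1xr1 at 37.8 ± 3.18 against 52.7 ± 16.1 CPM. Without male replicates 1 and 2 the log2 fold change of Pprc1 was 0.15 in place of 0.41, that of Ncoa1 0.11 in place of 0.28 and that of Tbl1xr1 -0.15 in place of -0.48. Of 12 receptor chaperones 7 were positive and 5 negative (median 0.01; 9 and 3 without the same mice, median 0.10), and the smallest p were those of Fkbp5 (79.8 ± 7.40 against 63.9 ± 12.3 CPM) and Hspa8 (3769 ± 217 against 3349 ± 251 CPM), the log2 fold change of Fkbp5 being 0.32 and, without male replicates 1 and 2, 0.19.

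Ligand supply genes held some of the largest differences, also uncalled. Aldh1a2, an enzyme that makes retinoic acid, was at 0.294, 0.467, 0.128, 0.441 and 0.141 CPM in males and at 0.582, 0.908, 0.940, 3.44 and 1.80 CPM in females. All females lay above all males, and the log2 fold change was 2.37 (SE 0.54, edgeR adjusted p = 0.358). Like Pgr, it passed the filter on low counts through the females. Hsd11b2, the enzyme that inactivates glucocorticoids, was at 0.965, 0.727, 0.811, 0.842 and 0.985 CPM in males and at 1.65, 1.49, 1.54, 1.38 and 1.68 CPM in females. Again the sexes did not overlap, with a log2 fold change of 0.83 (SE 0.19, edgeR adjusted p = 0.363). Hsd11b1, which reactivates glucocorticoids, averaged 3.52 ± 0.471 CPM in females against 8.77 ± 7.89 CPM in males, with a log2 fold change of -1.32 that was -0.60 without male replicate 1. Dhrs9, a retinol dehydrogenase, was at 0.400 ± 0.289 and 1.31 ± 1.71 CPM, with -1.70 that was -0.47 without male replicate 1. Of the retinoid supply list 5 of 7 tested genes were positive and 2 negative (median 0.03), and of the steroid, thyroid hormone and vitamin D supply list 5 of 14 were positive and 9 negative (median -0.13). Leaving out male replicates 1 and 2 gave 4 positive and 3 negative (median 0.09) for the first list and 6 and 9 of 15 tested (median -0.08) for the second.

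Among the target lists, the tested genes of the liver X receptors were 3 positive and 8 negative (median -0.06), those of PPAR 5 and 9 (-0.06), those of retinoic acid 1 and 2 (-0.00), those of the glucocorticoid receptor 7 and 5 (0.05) and those of REV-ERB and ROR 7 and 5 (0.13). With male replicates 1 and 2 left out the same lists had 2 and 9 (-0.06), 4 and 10 (-0.02), 2 and 1 (0.08), 8 and 4 (0.11) and 7 and 5 (0.03). The clock gene Per1, which glucocorticoids induce, had the smallest p of these lists, at 19.3, 12.6, 21.3, 23.4 and 20.6 CPM in males and at 27.2, 28.9, 33.1, 36.9 and 33.6 CPM in females. The sexes did not overlap (log2 fold change 0.72, SE 0.15, edgeR adjusted p = 0.285). Without male replicates 1 and 2 the log2 fold change of Per1 was 0.55. The Wald test of DESeq2, which called 0.361% of the genes it tested, called Per1 (adjusted p = 0.00675) and Aldh1a2 (DESeq2 adjusted p = 0.0126) among the genes of the 11 lists. Anxa1 averaged 49.0 ± 12.1 CPM in females against 128 ± 99.6 CPM in males, and its log2 fold change of -1.39 was -0.83 without male replicate 1. For the liver X receptors the named genes are Smpdl3a (log2 fold change -0.25) and Scd1 (-0.38), for PPAR Cd36 (-0.61) and Txnip (-0.27), for retinoic acid Cebpe (-0.64) and Tgm2 (0.35), and for REV-ERB and ROR Nfil3 (-0.57) and Per2 (0.53). Without male replicates 1 and 2 these were -0.10, -0.58, -0.29, -0.18, -0.06, 0.08, -0.27 and 0.30 in the same order. Leaving out male replicate 1 alone gave -0.16 for Smpdl3a, -0.37 for Cd36, -0.15 for Txnip and -0.25 for Cebpe. Scd1 was at -0.25 without male replicate 5, and Per2 at 0.35 without male replicate 2.

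The immediate early genes, the class to which the NR4A genes belong, had 0 positive and 13 negative fold changes of 13 tested, with a median of -0.23 and 0 called. Leaving out male replicates 1 and 2 gave 4 positive and 9 negative, with a median of -0.11. Dusp1, a phosphatase that ends MAP kinase signalling, was at 24.7, 16.8, 15.9, 18.9 and 16.2 CPM in males and at 15.3, 11.8, 15.4, 9.47 and 14.98 CPM in females, which did not overlap (log2 fold change -0.47, SE 0.17, edgeR adjusted p = 0.506). Btg2 averaged 21.9 ± 4.42 CPM in females against 29.6 ± 9.01 CPM in males, with -0.44 that was -0.25 without male replicate 1. Nr4a1, at -0.51 (SE 0.39), was -0.21 without male replicate 1. Leaving out male replicates 1 and 2 gave -0.06, while Nr4a2 had the other sign at 0.31 (SE 0.23), and 0.19 without female replicate 2.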

How the data were processed

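Bulk RNA-seq of lineage-depleted marrow from 5 male and 5 female mice was used as the authors deposited it, as raw read counts per gene for 10 libraries. STAR, featureCounts and DESeq, without versions, and the builds GRCm38.p6 and mm10 are named per the submitters' processing notes. No source used here gives the annotation release, library kit or strand setting. The deposited normalized table was not used here.

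Receptors were matched by symbol. Coordinates and exon lengths come from GENCODE vM21 (GRCm38), which held 25116 of the 25178 genes. The other 62 have no length. Promoter sequences are RefSeq's (GRCm38.p6), with entries for 41 of the 45 receptors.

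The filter was filterByExpr of edgeR, grouped by sex (14674 genes kept), followed by TMM scaling. Sexes were compared with the quasi-likelihood test of edgeR 4.0.16 (R 4.3.3) with sex as the only term. Benjamini-Hochberg adjustment ran over all genes tested, and a gene was called under 0.05. The SE is the fold change over the square root of the F statistic. TPM used exon-union lengths, and as a share of all RNA it falls where a few RNAs are very abundant. On simulated data the fit recovered 73 of 100 changes at a log2 fold change of 1 and 90 of 100 at 2. It also called 4 unchanged genes. Smaller changes were not simulated.

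Levels are given in every library for receptors called, the 8 with the highest TPM, the 8 with the smallest p, the 5 with the largest CV and the tested steroid receptors. In each list of other genes the 2 of smallest p are named, except 1 gene that is not reported here, and other names outside this rule were chosen after their values were seen. The receptors, lists and alternatives (DESeq2 1.42.0, other scaling and filters, a replicate block, an exact permutation over 252 assignments, libraries left out) were chosen with earlier results of these data known.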

Additional observations from a re-analysis of the deposited data

Results flagged for a closer look

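Within each sex, the library furthest from the others was compared with the range of its group for the 25 tested receptors and 13 marker lists, in 76 groups of 5. Chance flags about 1 in 20 such groups, and 8 were found. Among the receptors, Rara stood at 10.95 CPM in male replicate 1, where the other males had at most 6.45 CPM. Its log2 fold change of -0.22 was 0.01 without that library. Nr1h3 stood at 1.72 CPM in male replicate 1, against at most 0.683 CPM in the other males. Nr2c2 stood at 34.5 CPM in female replicate 3, against 29.1 to 30.6 CPM in the other females, a gap far smaller than its spread between males.

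Male replicate 1 also stood apart among the males in the summed level of markers of monocytes (761 CPM, the next 405 CPM), macrophages (131 CPM, the next 44.9 CPM) and dendritic cells (372 CPM, the next 278 CPM). The stem and progenitor markers were lowest in male replicate 2 (897 CPM, the next 1198 CPM), and the stromal and adipocyte markers were highest in male replicate 5 (2811 CPM, the next 886 CPM).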

How the results depend on the processing

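Pgr was the 1 receptor called in edgeR under DESeq2's size factors, without a filter, without each single library and without male replicates 1 and 2, and by DESeq2's Wald test. No receptor (0) was called with a filter of 1 CPM in 5 libraries, which leaves Pgr untested among 22 receptors, or with the replicate number as a block (Pgr 4.34, adjusted p = 0.310). Whether equal numbers pair mice is not given in the labels. Same-numbered mice had correlations of deviations from -0.30 to -0.01 over all genes tested, and a pairing for single genes was not tested. Over all genes 8 were called, 5 with the block, 53 by DESeq2, and 6 to 10 without single libraries. Of the genes in the pathway lists 0 were called by edgeR and 2 by DESeq2. Receptors at 1 TPM or more numbered 18, and 20 by the longest transcript. The median CV of 20.7% was 23.2% on total counts and 16.0% without male replicates 1 and 2. The cause of these shifts was not tested. Without male replicates 1 and 2 the sign turned for Rxrb (-0.0225), Nr1h3 (0.24) and Esrra (-0.0469), all within 1 SE of 0. Leaving out 1 library turned signs for Rara (-0.29 to 0.00977), Pparg (-0.25 to 0.43), Nr1h3 (-0.52 to 0.31), Hnf4a (-0.20 to 0.0642), Nr1d1 (-0.13 to 0.0319) and Esrra (-0.00145 to 0.0992). Exact permutations were run for the 25 tested receptors, and their share over all genes is not given. Besides Pgr, those with an unadjusted permutation p under 0.05 were Rarg (0.0159), Esr1 (0.0397) and Ppard (0.0476), where the smallest possible is 0.00794. The edgeR adjusted p of Rarg, Esr1 and Ppard was 0.506 each. Receptors with few counts are limited by depth.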
